A study of Mus musculus with 9 samples.

Results

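The 10 genes described here are Trp53, which encodes the transcription factor p53, and 9 genes that p53 is known to switch on: Mdm2, Ccng1, Phlda3, Zmat3, Bax, Bbc3, Fas, Trp53inp1 and Perp. They were picked by name as known members of the pathway, by someone who had seen earlier results of these data, and all 10 were present among the 21899 genes of the table. Poly(A) RNA came from mouse brain tumor stem cells (BTSC), sequenced as 9 libraries in 3 groups of 3. Control libraries held BTSC with no further label, and the others held BTSC in which Gpd1, the cytosolic glycerol-3-phosphate dehydrogenase, had been targeted by CRISPR-Cas9 with sgRNA1 or sgRNA2. Per the labels, edited (KO) cells passed a puromycin selection and were expanded from colonies that each began with 1 cell, and Gpd1 loss was checked on DNA and by western blot. The labels do not say whether the controls were transfected, selected or picked as colonies, nor which mutations started the tumor or whether its Trp53 gene is intact. A count over a whole gene also does not show whether the Trp53 coding sequence is intact. Within a guide each KO title carries a different number, but the labels do not tie a library to a colony, nor say that the controls came from separate cultures. The p-values therefore measure only the spread between these libraries, which may be technical among the controls.

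p53 binds DNA as a tetramer, at sites made of a pair of 10-base half-sites, and switches on genes that stop the cell cycle, repair DNA, alter metabolism or start apoptosis. Mdm2, itself a target, ubiquitinates p53 and sends it for degradation, which closes a feedback loop. p53 is mostly controlled as a protein, so its mRNA level need not follow its activity.

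The stretch of DNA before a gene's start is shown for the members in which it holds a match to the p53 half-site consensus, since such half-sites are what p53 recognises in DNA. RefSeq promoters of build GRCm38.p6, each covering 250 bases before to 50 bases after a start, were matched for 7 of the 10 genes, with 9 promoters in all. Trp53inp1, Zmat3 and Perp had no entry. Searched on both strands with the 10-base consensus, which reads the same on each, 4 of the 9 promoters held 1 half-site: those of Trp53, Mdm2, Bax and Ccng1. Among all 32851 promoters of the same length, 2745 (8.36%) held one. The 250 bases before each start are given 5′ to 3′ on the gene's strand, with the half-site in capitals. They lie at chr11:69580109-69580358 on the plus strand for Trp53, and on the minus strand at chr10:117710759-117711008 for Mdm2, chr7:45466899-45467148 for Bax and chr11:40755287-40755536 for Ccng1.
Trp53: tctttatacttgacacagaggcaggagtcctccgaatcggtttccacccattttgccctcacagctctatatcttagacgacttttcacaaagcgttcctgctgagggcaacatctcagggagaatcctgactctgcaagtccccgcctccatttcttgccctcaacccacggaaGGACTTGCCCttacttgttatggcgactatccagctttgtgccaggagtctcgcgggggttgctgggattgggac
Mdm2: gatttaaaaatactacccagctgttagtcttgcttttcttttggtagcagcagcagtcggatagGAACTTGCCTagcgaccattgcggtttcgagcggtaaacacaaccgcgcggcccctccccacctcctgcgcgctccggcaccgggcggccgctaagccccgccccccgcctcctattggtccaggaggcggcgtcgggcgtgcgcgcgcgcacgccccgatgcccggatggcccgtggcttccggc
Bax: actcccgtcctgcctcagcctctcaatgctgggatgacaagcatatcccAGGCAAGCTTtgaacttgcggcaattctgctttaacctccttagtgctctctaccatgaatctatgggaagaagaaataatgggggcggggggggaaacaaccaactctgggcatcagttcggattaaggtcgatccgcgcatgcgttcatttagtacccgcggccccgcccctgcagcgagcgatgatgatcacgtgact
Ccng1: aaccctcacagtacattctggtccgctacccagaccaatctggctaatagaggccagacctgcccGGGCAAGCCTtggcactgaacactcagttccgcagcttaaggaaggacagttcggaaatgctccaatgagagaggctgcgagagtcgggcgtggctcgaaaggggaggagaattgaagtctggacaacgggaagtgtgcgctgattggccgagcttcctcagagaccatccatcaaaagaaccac
The half-sites begin 75 bases before the start of Trp53, 186 before that of Mdm2, 201 before that of Bax and 185 before that of Ccng1. In the Ccng1 promoter the capitals are the second part of a 20-base site of adjoining half-sites, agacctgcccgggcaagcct, which begins 195 bases before the start and has 1 mismatch to the consensus. Of all promoters, 29 (0.0883%) held such a site with at most 1 mismatch, and Ccng1 was the only one of the 7 genes matched. A pair of perfect half-sites at most 13 bases apart was found in 24 promoters (0.0731%), none of them of these genes. The 3 promoters of Bbc3 and those of Phlda3 and Fas held no half-site, which says only that these letters are not in these windows. A match is a description of sequence and not evidence of binding, which was not measured.

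The deposited values are read counts scaled by the authors to make libraries comparable, called normalized counts here, and they summed to between 39781901 and 42975283 per library. Gpd1 was at 12.8%, 5.21% and 82.6% of the control mean in sgRNA1 KO 1, 2 and 3, and at 41.8%, 41.8% and 26.9% in sgRNA2 KO 1, 2 and 3, so Gpd1 mRNA was below the controls in all 6 but by very different amounts. Taken over all genes, sgRNA1 KO 3 and sgRNA2 KO 1 lay nearest the controls. Their median absolute log2 ratio to the control mean was 0.363 and 0.346, and the other 4 edited libraries ranged from 0.543 to 0.687. Edited libraries of 1 guide varied more than controls, with a median SD per gene (log2, n = 3) of 0.323 for sgRNA1 and 0.344 for sgRNA2 but 0.086 for control. The labelled cell type was met by its markers, with all 12 neural and glioma stem cell genes present, among them Vim, Fabp7, Olig1, Olig2 and Nes, but with Prom1 only at 3 to 31 normalized counts. Microglia markers were near 0, with 5 of 10 in the table and a sum of 30 to 64 normalized counts per library. In bulk RNA, fewer cells of a type and less RNA per cell cannot be told apart. Of the 10 genes, 9 had a mean of at least 10 normalized counts and were tested with limma on log2(value + 1), among 15827 genes, and a Benjamini-Hochberg adjusted p under 0.05 was taken as passing. The exception was Perp.

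The question was how the mRNA of p53 and its targets differed between Gpd1-targeted and control BTSC. In KO against control, 4 of the 9 tested genes fell (Trp53, Mdm2, Ccng1 and Phlda3) and 1 rose (Bbc3), by limma. Over all 15827 genes, 39.3% passed, 20.2% in the lower and 19.1% in the higher direction. By count, 5 of the 9 lay below every control in all 6 KO libraries (the 4 that fell, and Bax) and 1 above every control (Bbc3), beside 23.8% and 21.1% of all genes. The median log2 fold change of the 9 genes was -0.50, and that of all genes -0.01. As shares of the 9, 44.4% fell and 11.1% rose, and 1 gene more or fewer would move a share by 11.1 percentage points.

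**Figure D1:**
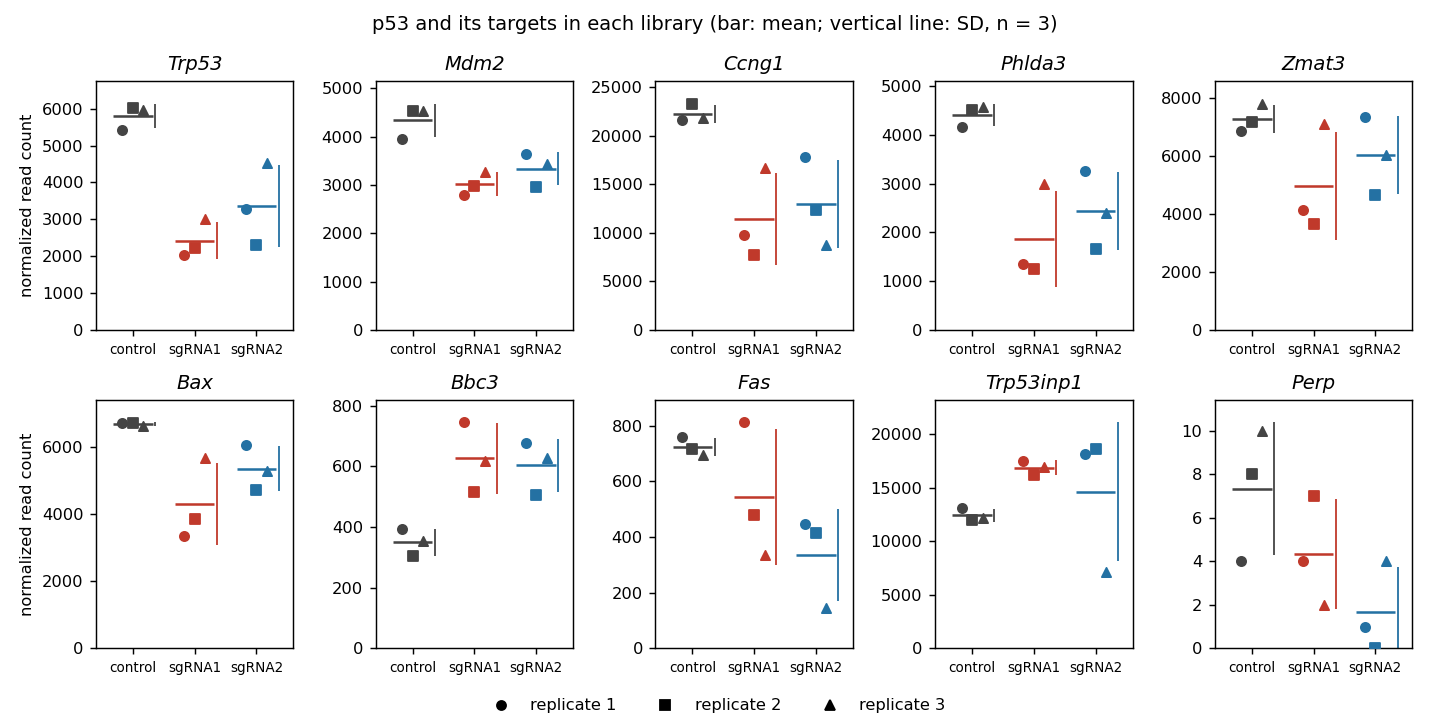
Normalized read count (vertical axis, linear, from 0) of p53 and the 9 target genes in each library, by group. Points are libraries, horizontal bars the mean and vertical lines the SD (n = 3, cut off at 0 for Perp). Trp53, Mdm2, Ccng1, Phlda3 and Bax are below all controls in all 6 KO libraries and Bbc3 is above them.

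Trp53 itself, on chr11:69580359-69591873 of GRCm38, was at 5424, 6029 and 5964 normalized counts in the controls. It was at 2045, 2214 and 2997 for sgRNA1 and at 3291, 2297 and 4520 for sgRNA2. Every KO library was below the lowest control, with sgRNA1 KO 1 lowest and sgRNA2 KO 3 nearest the controls. The mean went from 5806 ± 332 (SD, n = 3) to 2894 ± 933 (SD, n = 6), or 49.8% of control. Trp53 fell by 1.06 on the log2 scale (SE 0.23, limma adjusted p = 0.00771), and the call held under every alternative tried for this comparison, with log2 fold changes of -1.20 to -0.94.

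Mdm2, the ubiquitin ligase of p53, changed least in size among the genes that fell and varied least between KO libraries. Its normalized counts were 3942, 4534 and 4538 in control, 2788, 2975 and 3276 in the sgRNA1 libraries, and 3631, 2953 and 3425 in the sgRNA2 libraries. The groups did not overlap, and the highest KO library was sgRNA2 KO 1. Mdm2 fell by 0.45 on the log2 scale (SE 0.11, limma adjusted p = 0.0122), to 73.2% of control. The call was lost without control 2 (adjusted p = 0.0660) or control 3 (adjusted p = 0.0640).

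Among targets that act on the cell cycle and growth, Ccng1 encodes cyclin G1, which recruits a phosphatase to Mdm2. It was the most abundant member, at 21580, 23287 and 21851 normalized counts in control. It was at 9774, 7728 and 16710 in the sgRNA1 libraries and at 17814, 12340 and 8776 in the sgRNA2 libraries. All 6 KO libraries were below the controls, and the levels closest to control were those of sgRNA1 KO 3 and sgRNA2 KO 1. Ccng1 fell by 0.94 on the log2 scale (SE 0.26, limma adjusted p = 0.0193).

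Phlda3, a small pleckstrin-homology protein that competes with Akt for membrane lipids, had the lowest log2 fold change of the 9. Its normalized counts were 4152, 4511 and 4575 in control, 1342, 1242 and 2994 in the sgRNA1 libraries, and 3263, 1654 and 2402 in the sgRNA2 libraries. Groups did not overlap, and the same libraries, sgRNA1 KO 3 and sgRNA2 KO 1, were again the highest of the KO libraries. Phlda3 fell by 1.14 on the log2 scale (SE 0.31, limma adjusted p = 0.0182), to 48.7% of control. Both calls were narrow: without any 1 control, Ccng1 reached adjusted p = 0.0563 to 0.0766 and Phlda3 adjusted p = 0.0514 to 0.0696.

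Zmat3, a zinc-finger protein that binds RNA and alters splicing, did not pass. It was at 6881, 7188 and 7815 normalized counts in control, 4150, 3673 and 7102 in the sgRNA1 libraries, and 7364, 4671 and 6054 in the sgRNA2 libraries. The groups overlapped, because sgRNA1 KO 3 and sgRNA2 KO 1 lay within the range of the controls while the other 4 were below it. The log2 fold change was -0.45 (SE 0.23, limma adjusted p = 0.131). Without both of those libraries it was -0.68 (limma adjusted p = 0.0129), but leaving out the libraries nearest the controls favours a larger fall.

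The mitochondrial death genes split. Bax encodes the protein that opens the outer mitochondrial membrane, and Bbc3 encodes Puma, a BH3-only protein that releases it. Bax was at 6709, 6710 and 6613 normalized counts in control, 3350, 3845 and 5678 in the sgRNA1 libraries, and 6065, 4713 and 5276 in the sgRNA2 libraries. All 6 KO libraries were below the controls, yet with a log2 fold change of -0.50 (SE 0.18) Bax just missed the threshold (limma adjusted p = 0.0537). It passed without sgRNA1 KO 3 (0.0402), sgRNA2 KO 1 (0.0290) or sgRNA2 KO 3 (0.0483), each an adjusted p from limma. In these KO libraries Bax was nearest the controls, so leaving 1 of them out favours a larger fall. An annotated gene, Gm45808, shares 192 bases (12.2%) of the Bax exons on the same strand, and how the authors counted reads there is not given in the sources used here.

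Bbc3 went the other way. Its normalized counts were 393, 305 and 353 in control, 746, 515 and 618 in the sgRNA1 libraries, and 676, 507 and 629 in the sgRNA2 libraries. Every KO library was above the highest control, and here sgRNA1 KO 3 and sgRNA2 KO 1 were not nearer the controls than the others. Bbc3 rose by 0.80 on the log2 scale (SE 0.16, limma adjusted p = 0.00553), to 176% of control. The call held under every alternative for this comparison, with log2 fold changes of 0.71 to 0.89. On the chromosome, Bbc3 and Bax are both on chromosome 7.

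Fas, the cell-surface death receptor, was the member that varied most between KO libraries among the tested genes. It was at 757, 717 and 695 normalized counts in control, 812, 479 and 336 in the sgRNA1 libraries, and 445, 415 and 145 in the sgRNA2 libraries. The library sgRNA1 KO 1 was above all controls and the other 5 were below them. The log2 fold change was -0.89 (SE 0.42, limma adjusted p = 0.118). Without sgRNA1 KO 1 it was -1.10 (limma adjusted p = 0.0445). Leaving out the only KO library above the controls favours a fall, so Fas is not counted as changed.

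Trp53inp1, a stress protein that promotes autophagy and cooperates with p53, had 1 library that stood apart. Its normalized counts were 13140, 12003 and 12164 in control, 17559, 16247 and 16928 in the sgRNA1 libraries, and 18181, 18615 and 7130 in the sgRNA2 libraries. In 5 KO libraries it was above all controls, and in sgRNA2 KO 3 it was below them, at 57.3% of the control mean. The log2 fold change was 0.28 (SE 0.28, limma adjusted p = 0.448). Without sgRNA2 KO 3 it was 0.49 (limma adjusted p = 0.00217). Leaving out the only KO library below the controls favours a rise, so Trp53inp1 is not counted as changed. Perp, a membrane protein of desmosomes with a role in apoptosis, was at 4, 8 and 10 normalized counts in control, 4, 7 and 2 in the sgRNA1 libraries, and 1, 0 and 4 in the sgRNA2 libraries. These values overlap and are too few for a comparison, and a 0 at this depth does not show that the gene was silent.

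**Figure D2:**
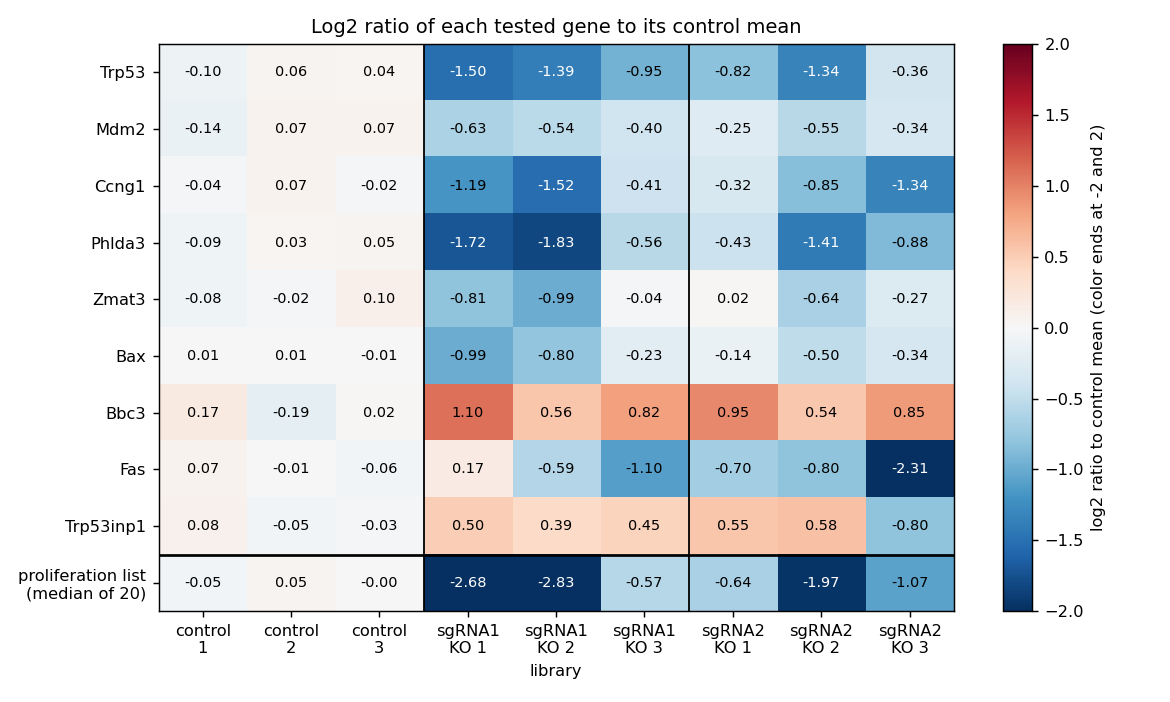
Log2 ratio to the gene's control mean (color, ending at -2 and 2, with the value printed in each cell) for the 9 tested genes (rows) in 9 libraries (columns), with the median of 20 proliferation genes in the last row. In the rows of Trp53, Mdm2, Ccng1, Phlda3, Zmat3, Bax and the proliferation list, sgRNA1 KO 3 and sgRNA2 KO 1 are paler than sgRNA1 KO 1, sgRNA1 KO 2 and sgRNA2 KO 2.

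The KO libraries differed in how far the genes lay from control. The median log2 ratio of the 9 genes to their control means was -0.81, -0.80 and -0.40 in sgRNA1 KO 1, 2 and 3, and -0.25, -0.64 and -0.36 in sgRNA2 KO 1, 2 and 3. Between 6 and 8 of the 9 genes were below all controls in each KO library, and between 1 and 3 were above them. Over all genes tested, 44% to 46.3% were below and 40.8% to 45.5% above all controls in a single KO library. Proliferation genes differed between the libraries too. The median log2 ratio of 20 such genes, such as Mcm helicase subunits and E-type cyclins, was -2.68, -2.83 and -0.57 in the sgRNA1 libraries and -0.64, -1.97 and -1.07 in the sgRNA2 libraries. In KO against control 12 of these 20 genes fell and 0 rose by limma, beside 20.2% and 19.1% of all genes. Their summed normalized counts were 249164 to 265315 in control and 35084 to 170105 in KO. Their part in the changes of the p53 targets was not tested.

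The spread of the log2 ratio over the 6 KO libraries was narrowest for Mdm2 (SD 0.15) and Bbc3 (SD 0.22), the negative regulator and the gene that rose. It was 0.43 for Trp53, 0.50 for Ccng1, 0.53 for Trp53inp1, 0.60 for Phlda3 and 0.81 for Fas. In control the SD was between 0.01 (Bax) and 0.18 (Bbc3) for the same 9 genes. Leaving out both sgRNA1 KO 3 and sgRNA2 KO 1 raised the count in KO against control from 5 to 7, by adding Bax (-0.66, limma adjusted p = 0.0114) and Zmat3. These libraries were picked for lying nearest the controls, so larger differences follow from the choice and are no separate support. Over all genes the share that passed went from 39.3% to 48.3% in the same step.

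Trp53 and Ccng1 lie on chromosome 11, and in sgRNA2 KO 3 the median gene of that chromosome was 0.47 above control on the log2 scale. The medians of the other chromosomes in that library were -0.17 to 0.10, and chromosome 11 was between -0.17 and 0.01 in the other 5 KO libraries. Trp53 was at -0.36 in that library, the value closest to control of the 6, and at -0.83 once the chromosome's median was subtracted. The other 5 KO libraries had subtracted values of -1.40 to -0.82, so sgRNA2 KO 3 then lay within the range of the rest. Ccng1 was at -1.34 there, and at -1.81 after subtraction, the lowest of the 6. The count of members that passed in KO against control was 6 with every gene centred in this way, since Bax was added (adjusted p = 0.0367), beside 40.1% of all genes.

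**Figure D3:**
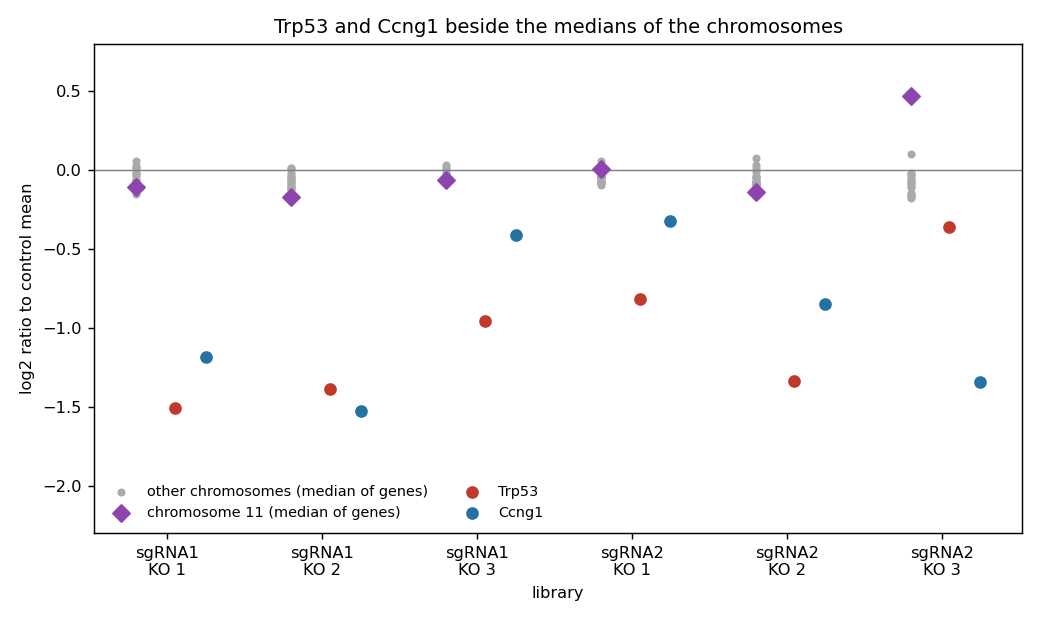
Log2 ratio to the control mean (vertical axis) in each KO library: grey points are the medians of the genes on each other chromosome, purple diamonds the median on chromosome 11, and red and blue points Trp53 and Ccng1, which lie on it. Chromosome 11 stands at 0.47 in sgRNA2 KO 3 only.

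The guides were then taken one by one against control, and since both use the same 3 control libraries their results are not independent. For sgRNA1, 6 of the 9 genes passed, beside 36% of all genes: Trp53, Mdm2, Ccng1, Phlda3 and Bax fell and Bbc3 rose. For sgRNA2, 2 of the 9 passed, beside 22.1% of all genes: Trp53 fell and Bbc3 rose. Trp53 fell by 1.28 with sgRNA1 (SE 0.24, limma adjusted p = 0.00848) and by 0.84 with sgRNA2 (SE 0.24, limma adjusted p = 0.0384). Bbc3 rose by 0.83 with sgRNA1 (SE 0.20, limma adjusted p = 0.0160) and by 0.78 with sgRNA2 (SE 0.20, limma adjusted p = 0.0263). For Mdm2, Ccng1 and Phlda3 the sgRNA2 values were -0.38, -0.84 and -0.91, with adjusted p of 0.0613, 0.0802 and 0.0867 from limma. Leaving out 1 library at a time moved the sgRNA1 count between 1 and 7 and the sgRNA2 count between 0 and 6. The sgRNA2 count was 0 without control 1, 2 or 3, and 6 without sgRNA1 KO 3, which changes only the shared spread. The whole table moved too. Of 15827 genes, 1809 rose and 1696 fell with sgRNA2. These became 329 and 314 without control 2, and 2615 and 2865 without sgRNA1 KO 3. For sgRNA1, 2713 rose and 2986 fell, which became 680 and 587 without control 2, and 3740 and 4160 without sgRNA1 KO 3.

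Directly between the guides, 0 of the 9 genes and 0% of all genes passed by limma. At an unadjusted p under 0.05 there were 474 genes and 0 members. The difference of sgRNA1 minus sgRNA2 was -0.44 for Trp53 (95% interval -0.99 to 0.10) and 0.05 for Bbc3 (-0.40 to 0.49). It was 0.76 for Fas (-0.25 to 1.77) and -0.46 for Phlda3 (-1.24 to 0.32). These intervals are wide enough to hold differences as large as many of the changes against control, so the guides are not shown to act alike.

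**Figure D4:**
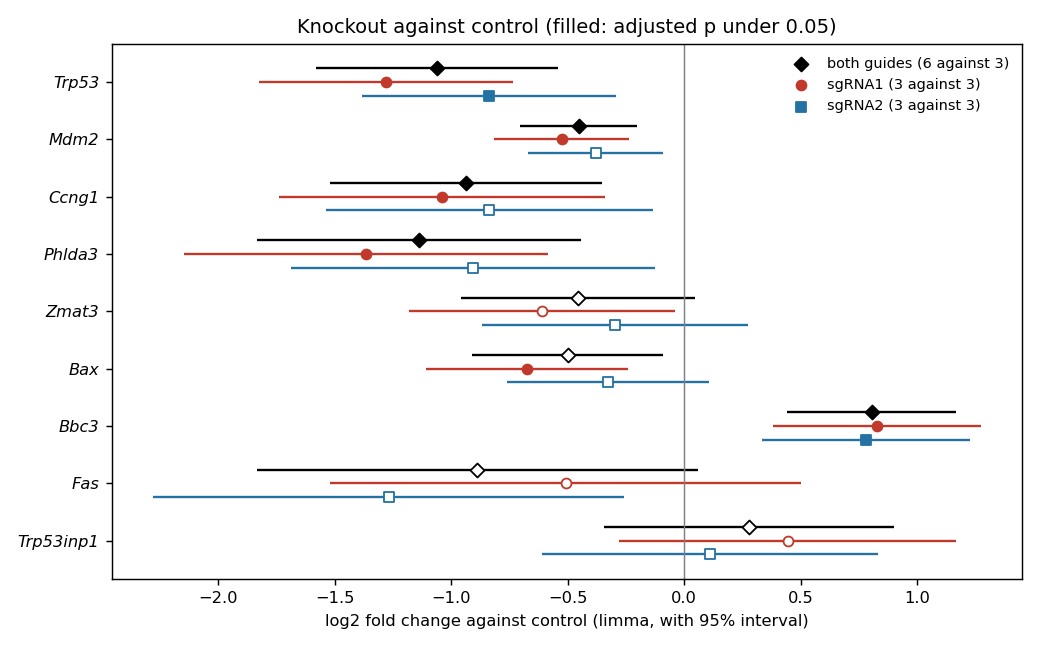
Log2 fold change against control (horizontal axis) of each tested gene, with its 95% interval from limma, for both guides (black diamonds), sgRNA1 (red circles) and sgRNA2 (blue squares). Filled symbols have an adjusted p under 0.05. Bbc3 is the only gene with a filled symbol to the right of 0, and Trp53 and Bbc3 are filled in all 3 comparisons.

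Levels can be compared between genes only per length of exon. In normalized counts per kilobase of exon, the control order was Ccng1 (6332 ± 261), Bax (4237 ± 35.4), Phlda3 (2830 ± 146), Trp53inp1 (1921 ± 95.02), Trp53 (1435 ± 82.1), Mdm2 (853 ± 67.5), Zmat3 (638 ± 41.6), Fas (351 ± 15.2), Bbc3 (165 ± 20.7) and Perp (3.76 ± 1.57), each as mean ± SD (n = 3). No neighbours in this order overlapped across the 3 control libraries. In the KO libraries Trp53inp1 stood above Phlda3 and Bbc3 above Fas, but all neighbours overlapped across the 6 libraries except Fas and Perp. Ccng1 was still highest by its mean, at 3471 ± 1205 per kilobase (SD, n = 6), with Bax at 3059 ± 673.

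Beyond these genes, 36 other known p53 targets were listed, of which 34 were tested in KO against control. By limma 4 (11.8%) rose and 8 (23.5%) fell, with a median log2 fold change of -0.22, beside 19.1% and 20.2% of all genes. The largest rises were those of Btg2, an antiproliferative factor (3124 ± 735 to 14783 ± 4232 normalized counts, log2 fold change 2.22, SE 0.24, limma adjusted p = 0.000537), Ddit4, an inhibitor of mTORC1 (1.56, adjusted p = 0.00116), and Ddb2, which recognises damaged DNA (1.08, adjusted p = 0.00695). The largest falls were those of Tnfrsf10b, the TRAIL receptor (510 ± 67.7 to 87.2 ± 84.2, log2 fold change -3.16, SE 0.81, limma adjusted p = 0.0138), the nuclease Aen (-1.42, adjusted p = 0.0103) and Pidd1, which assembles a caspase-2 platform (-1.37, adjusted p = 0.0237). The fourth gene that rose was Sesn1, which answers oxidative stress and is named after its values were seen (0.99, adjusted p = 0.0267). The other 5 that fell, at -1.25 to -0.69 and also named after their values were seen, were Ada, Tigar, Sulf2, Rps27l and Apaf1, the core of the apoptosome. Cdkn1a, which encodes the cell-cycle inhibitor p21 and is named here after its values were seen, did not pass. It was at 9754, 10768 and 11007 normalized counts in control, 4265, 4906 and 11086 in the sgRNA1 libraries, and 12344, 5638 and 14220 in the sgRNA2 libraries. Of its 6 KO libraries 3 were below and 3 above all controls (log2 fold change -0.42, limma adjusted p = 0.405).

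Of 30 listed regulators of p53, 28 were tested, and 3 (10.7%) rose and 9 (32.1%) fell by limma, beside 19.1% and 20.2% of all genes, with a median log2 fold change of -0.31. Atm, the kinase that signals double-strand breaks, fell by 1.08 (SE 0.20, limma adjusted p = 0.00371), and Chek1, a checkpoint kinase, fell by 1.96 (SE 0.63, limma adjusted p = 0.0333). The nucleolar protein Npm1, which shares sequence with processed copies and is therefore uncertain, fell by 1.37. Trim24, a ubiquitin ligase of p53, rose by 0.57, Trp53bp2, a p53-binding protein that favours death targets, by 0.42, and Kat5, an acetyltransferase of p53, by 0.33. Without both sgRNA1 KO 3 and sgRNA2 KO 1 5 rose and 14 fell, while over all genes 23.3% rose and 25% fell.

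In the Bcl2 family, from which Bax and Bbc3 were kept out, 13 of 15 listed genes were tested, and 2 (15.4%) rose and 2 (15.4%) fell by limma, with a median log2 fold change of 0.16. Over all genes the shares were 19.1% and 20.2%, and with only 13 genes tested the shares of the list are not set apart from these. Bmf, a BH3-only protein like Puma, rose by 2.97 (SE 0.54, limma adjusted p = 0.00368), from 68.3 ± 14.6 (SD, n = 3) to 671 ± 531 (SD, n = 6) normalized counts, and Bad, another, rose by 0.35. Bok, a relative of Bax, fell by 1.70, and Mcl1, which protects from death, fell by 0.37. Of 16 genes of the death receptor and caspase route around Fas, 15 were tested, and 3 (20%) rose and 6 (40%) fell, beside 19.1% and 20.2% of all genes, with a median log2 fold change of -0.32. Casp8, the initiator caspase bound below Fas, fell from 775 ± 46.5 to 136 ± 63.3 normalized counts (log2 fold change -2.68, SE 0.46, limma adjusted p = 0.00292), and Cflar, which blocks it, rose by 0.73. Casp9, the initiator of the mitochondrial route, rose by 0.58 and the death receptor Tnfrsf21 by 1.11. Tnfrsf1a, the TNF receptor, fell by 0.85, as did Cycs (by 1.08), whose processed copies make it uncertain. Proliferation genes led by Ccne2 (-2.65), Rrm2 (-2.33) and Mcm5 (-2.20) had a median of -1.67, and 60% of them fell, beside 20.2% of all genes.

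**Figure D5:**
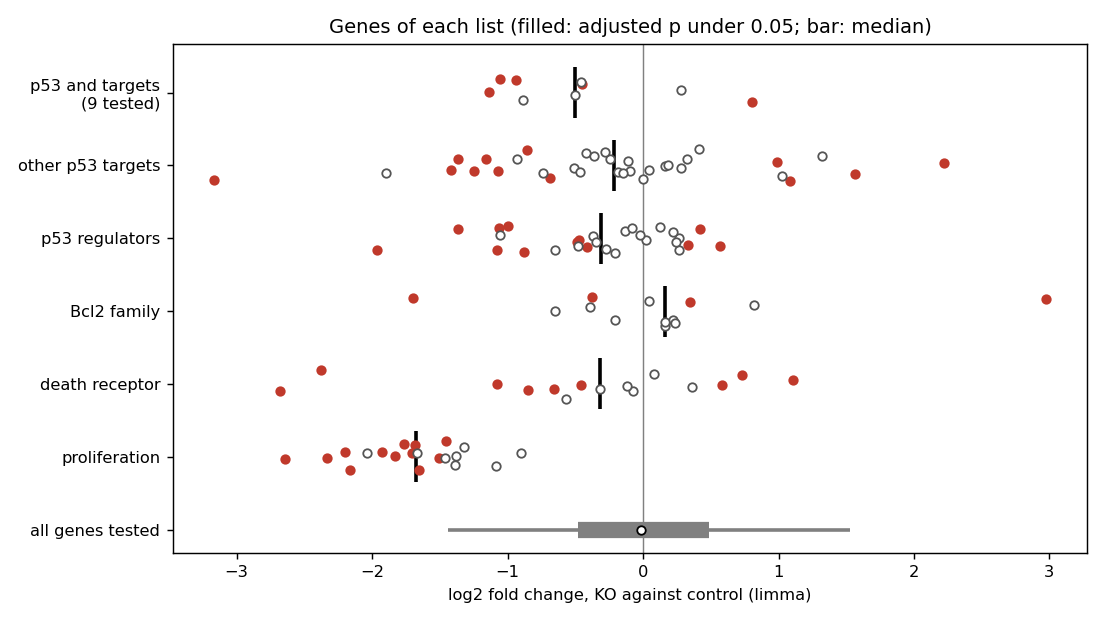
Log2 fold change in KO against control (horizontal axis) for the tested genes of each list (rows). Filled points have an adjusted p under 0.05 from limma and black bars are list medians. The bottom row gives all 15827 genes, with a dot at the median, a box from the 25th to the 75th percentile and a line from the 5th to the 95th. The medians of p53 and its targets (-0.50), other p53 targets (-0.22), p53 regulators (-0.31), death receptor genes (-0.32) and proliferation genes (-1.67) lie to the left. That of the Bcl2 family (0.16) lies to the right.

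Markers of other cells also moved with the groups. Endothelial markers (6 of 8 in the table) summed to 592 to 648 normalized counts in control and 99 to 263 in KO, and most of the control sum was Flt1, at 450 ± 5.57 (SD, n = 3). Of the 4 tested, Flt1 (log2 fold change -3.62) and Kdr (-1.46) fell, and Tek (0.58) and Pecam1 (0.37), named after their values were seen, did not pass. Fibroblast and pericyte markers (5 of 8) summed to 100 to 118 and 21 to 40, with Rgs5 at -4.25. Neuron markers (7 of 9) summed to 42944 to 44238 and 47859 to 126637, nearly all of it Map2, which rose by 0.85. The other genes of these lists, Cdh5, Cldn5, Col1a2, Dcn, Lum, Stmn2 and Nefl, had no row in the table. The lowest sum of a row was 10, so a missing row does not show that a gene was at 0. Of the 12 stem cell markers, all tested, 1 (8.33%) rose and 3 (25%) fell by limma, beside 19.1% and 20.2% of all genes. Sox2 rose by 0.94, Cd44 fell by 1.51, Nes fell by 1.36 and Vim fell by 0.93, and the other stem cell markers did not pass. The part of these markers in the changes of the p53 targets was not tested.

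The genes whose log2 ratios across the 6 KO libraries were most like those of Trp53 came from neither list of its targets. The likeness was the root mean square difference over the 6 libraries, computed for 11378 candidate genes. Zc3h8, a zinc-finger protein, was nearest (0.06), followed by Actn4, an actin crosslinker (0.11), Utp18, a ribosome assembly factor (0.13), Cirh1a (0.13) and Zpr1 (0.13). Among the 8 other tested members the nearest was Phlda3, at 0.37, with 457 candidates nearer than it. Ccng1 was at 0.56, Bax at 0.62, Zmat3 at 0.67 and Mdm2 at 0.67. Fas (1.12), Trp53inp1 (1.57) and Bbc3 (1.91) were farthest.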

How the data were processed

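Poly(A) RNA of 9 libraries (control, sgRNA1 KO and sgRNA2 KO, 3 each, grouped by the labels) was sequenced on an Illumina HiSeq. Tools listed, per the submitters' processing notes, are STAR (2.4.1d), featureCounts and DESeq2, and the build is mm10. The annotation release is not given in the sources used here. Values in the deposited file are scores: the authors scaled read counts by 1 factor per library and rounded them, as inferred from the values. Raw counts were not used here, so no count model was run. The library totals of 39781901 to 42975283 are sums of scaled values, so the raw depth of each library and its counting error are not known here.

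Values were tested as log2(value + 1) with limma 3.58.1 (R 4.3.3, mean-variance trend, two-sided), for the 15827 genes that averaged 10 or more over the 9 libraries. p-values were Benjamini-Hochberg adjusted over all of them, with a threshold of 0.05. KO against control used 2 groups. For single guides, against control or each other, all 3 groups entered 1 fit. The added 1 understates changes of low genes. Intervals are 95% intervals from limma. The code was checked on simulated data. In KO against control it recovered 49 of 100 2-fold and 79 of 100 4-fold changes. For each guide against control it recovered 30 of 100 2-fold changes. The simulation changed few of its genes (100 by 2-fold and 100 by 4-fold, of 16094 tested in KO against control). It also gave all groups the same spread per gene. In the data 39.3% of genes passed and KO libraries varied more than controls, so these rates need not hold for the real table. A gene that did not pass is in any case not shown to be unchanged.

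Positions and exon lengths came from GENCODE M21 (GRCm38), which matched 21817 of 21899 genes (99.6%), and promoters from RefSeq (GRCm38.p6). Members and lists were chosen with earlier results of these data known. Genes named from a list were the 3 largest rises and 3 largest falls that passed and averaged 50 or more in either group, or the 2 most abundant, and the 5 most like Trp53. Other genes named are said to be chosen after their values were seen.

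Alternatives were a pseudocount of 0.5 or 5, a filter at 50 or none, median-of-ratios rescaling, quantile normalization, a replicate block, variance weights per group, centring on chromosome medians, only the 6 libraries of a guide comparison, each library left out in turn, and sgRNA1 KO 3 and sgRNA2 KO 1 left out together. The libraries left out together were picked for lying nearest the controls, so this setting favours larger differences from control. List counts without both libraries were added after the data were seen. Tables and figures were made in Python 3.11.15 (pandas 2.3.3, numpy 2.4.6, matplotlib 3.10.9).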

Additional observations from a re-analysis of the deposited data

Results flagged for a closer look

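Of 52 values looked at over the 6 KO libraries, 4 had 1 library far from the other 5, with a gap above Dixon's 95% critical value for groups of 6, and chance alone gives about 1 in 20. Trp53inp1 was at 7130 normalized counts in sgRNA2 KO 3, and at 16247 to 18615 in the other 5. Bmf was at 1666 normalized counts in sgRNA1 KO 1 and at 257 to 728 in the other 5, and all 6 were above the controls. The median log2 ratio of chromosome 11 was 0.472 in sgRNA2 KO 3, and that of chromosome 3, which carries Zmat3, was -0.146 in the same library. Chromosome 3 was not the lowest there, since chromosomes 12, 13, 14, 16 and X were at -0.174 to -0.150. Thus 3 of the 4 values came from sgRNA2 KO 3.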

How the results depend on the processing

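Over the alternatives, the log2 fold changes of the 9 genes in KO against control kept their direction in all 171 values, and Trp53 and Bbc3 also kept their side of the threshold in each. The count of members that passed, 5, was 8 with variance weights per group (55.9% of all genes, from 39.3%), and between 2 and 7 with 1 library left out, lowest without control 2 or 3 (2 each) or control 1 (3). For sgRNA1 the count of 6 ranged from 1 to 7 with 1 library left out: 3, 1 and 1 without control 1, 2 and 3, and 1 and 2 without sgRNA1 KO 1 and 2. For sgRNA2 the count of 2 became 5 with variance weights, 8 without both sgRNA1 KO 3 and sgRNA2 KO 1, 4 with only the 6 libraries compared (29.8%, 39.4% and 30.7% of all genes, from 22.1%), and 0 to 6 with 1 library left out. The cause of these moves was not tested, and where libraries were left out the number of samples was smaller as well. Some directions turned, none of them in a value that had passed. Trp53inp1 with sgRNA2 (0.11) was -0.11 without both libraries, and -0.13 to 0.57 with 1 library left out. Between the guides, Ccng1 (-0.20) was 0.021 when centred on chromosome medians, and -0.52 to 0.054 with 1 library left out. With 1 library left out, Bbc3 (0.05) was -0.088 to 0.18, and Trp53inp1 (0.33) was -0.12 to 0.57.

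Over all genes, the 6227 that passed in KO against control became 3904, 2777 and 3006 without control 1, 2 and 3. The 5699 of sgRNA1 became 1267 to 2811 without 1 control, 1952 without sgRNA1 KO 1 and 2348 without sgRNA1 KO 2. The 3505 of sgRNA2 became 643 to 1320 without 1 control, 1431 without sgRNA2 KO 2, 5480 without sgRNA1 KO 3 and 6243 without both nearer libraries. The 0 genes between guides became 182 without sgRNA1 KO 3, 30 without both nearer libraries, and 1 each without sgRNA1 KO 1 or sgRNA2 KO 1. With the replicate number as a block (replicate block) the count of members in KO against control was again 5, and Fas passed with sgRNA2 (-1.27, limma adjusted p = 0.0415). Deviations of same-numbered libraries correlated between -0.345 and 0.332, and those of differently numbered ones between -0.525 and 0.523. This cannot decide whether the numbers pair libraries, because the KO libraries also differ in their distance from control. Without both nearer libraries, the counts that fell were 12 of 34 other targets and 19 of 20 proliferation genes, beside 25% of all genes. Among the members only Perp had too low a mean to be tested, and the raw depth of the libraries is not known here.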

Other observations

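Some p53-linked genes outside the lists are given as values, chosen after their values were seen. Trp53cor1, the lincRNA-p21 gene, was at 292, 216 and 231 normalized counts in control, 744, 453 and 482 in the sgRNA1 libraries, and 413, 666 and 439 in the sgRNA2 libraries. It was above all controls in 6 of 6 KO libraries and rose by 1.09 on the log2 scale (SE 0.22, limma adjusted p = 0.00562). Its neighbour on the map, Cdkn1a, did not share this direction in every library. Trp53inp2, a paralog of Trp53inp1 that acts in autophagy, was at 7247, 6535 and 6651 in control, 9729, 9479 and 9711 in the sgRNA1 libraries, and 9773, 9198 and 8966 in the sgRNA2 libraries. It rose by 0.48 (SE 0.08, limma adjusted p = 0.00285), with sgRNA2 KO 3 above the controls as well, unlike Trp53inp1. Gtse1, a mitotic protein that binds p53, was at 5194, 5964 and 5927 in control, 755, 535 and 4115 in the sgRNA1 libraries, and 4050, 1450 and 3080 in the sgRNA2 libraries. The groups did not overlap, and it missed the threshold (log2 fold change -1.69, limma adjusted p = 0.0618).

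The library sgRNA2 KO 3 was the highest of the 9 for Sesn2 and Hrk, which were chosen after their values were seen and did not pass in KO against control. Sesn2, a sestrin induced by p53 and by amino acid stress, was at 13220 normalized counts there, and at 1740 to 3887 in the other 8 libraries. Hrk, a BH3-only gene, was at 336 there and at 4 to 23 elsewhere. Fas, in contrast, was lowest there, at 145, against 336 to 812 in the other 8.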
